A study of Mus musculus with 9 samples.

Results

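Genes that differed from healthy spinal cord in experimental autoimmune encephalomyelitis (EAE) whatever the treatment were sought by taking the 6 EAE libraries of the series as 1 diseased group and comparing it with the 3 naive libraries. All 9 libraries of the series entered the comparison. They were made from total RNA of spinal cord of WT mice with a 3′ mRNA kit, which reads the end of each transcript. The naive group (3 libraries) is labelled as naive, the EAE vehicle group (3 libraries) as EAE given vehicle, and the EAE GV1001 group (3 libraries) as EAE given GV1001, a peptide derived from telomerase. Naive libraries are not labelled as having had vehicle or any immunisation agent, and strain, age, immunisation, dose and day of disease are not given in the labels. Extraction used either TRIzol or a Maxwell kit, and which sample had which is not stated. The labels do not say that replicates are separate animals, so p-values measure the spread between these samples, which may be technical in part.

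EAE is a mouse model of multiple sclerosis in which T cells that recognise myelin enter the spinal cord and recruit monocytes. Endothelium of the small veins, astrocytes and microglia respond to the cytokines that are released, and myelin and axons are damaged in patches. RNA of whole cord therefore mixes transcripts of cells that came in with those of resident cells, and a lower level of a transcript can mean fewer cells of a type or less RNA per cell, which cannot be told apart here.

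Libraries held 5247246 to 6174870 counts. Levels are given as CPM (counts scaled to a fixed library total after normalisation), and 3 counts correspond to 0.486 to 0.572 CPM. The filter on low counts kept 15351 of 40879 gene symbols for testing. The tissue markers were in place in all 9 libraries: Mbp, a structural protein of myelin, lay between 6549 and 10170 CPM, Snap25 of nerve terminals between 912 and 1455 CPM, and Chat of motor neurons between 14.8 and 24.7 CPM. The diseased libraries were uneven. The 16 tested skeletal muscle genes took 0.00417% to 0.0307% of counts in naive libraries and 0.00493% to 0.530% in diseased libraries, with the highest shares in EAE GV1001 replicates 1 and 2. Schwann cell genes, which mark nerve roots, took 0.106% to 0.156% in naive and 0.0634% to 0.359% in diseased libraries, and red cell genes reached 0.487% in EAE vehicle replicate 2 against at most 0.0706% in naive libraries.

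A single gene rose in the pooled diseased group at an adjusted p below 0.05, and none fell. It was Lrg1, which encodes a secreted leucine-rich glycoprotein made by venous endothelium and liver in inflammation. That call rate was 0.00651% of the 15351 genes (edgeR quasi-likelihood test, Benjamini-Hochberg adjustment). At an unadjusted p below 0.05 there were 2171 genes (14.1%), 1307 of them higher and 864 lower in disease. The smallest adjusted p among genes that were not called was 0.0949. DESeq2 called 473 genes (414 higher, 59 lower), 361 of which had no overlap between diseased and naive libraries, and limma-voom called 0, with 1774 genes at an unadjusted p below 0.05.

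Complete separation of the libraries, which has no adjustment for the number of genes, was far more frequent than calls. Separation and calls are unlike thresholds, so a separated gene is not thereby an established change. In 698 genes (4.55% of those tested) all 6 diseased libraries lay above all 3 naive libraries, and in 574 genes (3.74%) all 6 lay below. These 2 sets had different shapes. The higher set had a median log2 fold change of 0.81, with 300 genes above 1, 176 above 2 and 52 above 4. The lower set had a median of -0.33, with 14 genes beyond -1 and 0 beyond -2. Spread among the diseased libraries was also unequal: the standard deviation (SD) of log2 CPM exceeded 1 in 154 of the higher genes and in 0 of the lower genes. Over all genes tested the median log2 fold change was -0.0011 and the median SD among diseased libraries was 0.27, against 0.16 among naive libraries. Leaving out 1 naive library raised the number of separated genes to between 2009 and 2300, since fewer naive libraries have to be cleared.

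**Figure D1:**
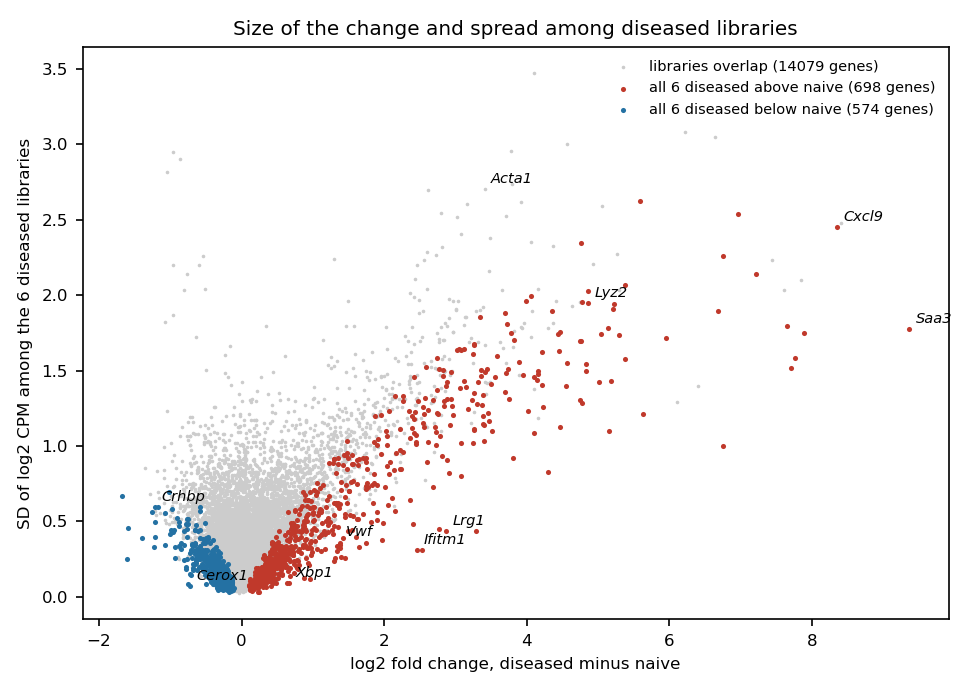
Each point is 1 of the 15351 genes tested: the x axis is the log2 fold change of the 6 diseased against the 3 naive libraries and the y axis is the SD of log2 CPM among the 6 diseased libraries. Red points (698 genes) had all diseased libraries above naive and reach large changes with large spread, blue points (574 genes) had all below and stay small and even, and Lrg1 lies at the lower edge of the red points.

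Lrg1 was measured at 5.07, 6.97 and 8.33 CPM in the naive libraries. In the 6 diseased libraries it had a lowest value of 32.9, a median of 51.5 and a highest of 69.9 CPM. The groups were well apart: the lowest diseased library, EAE vehicle replicate 3, stood at 32.9 CPM against a naive maximum of 8.33 CPM. The log2 fold change was 2.87 ± 0.30 (SE), a 7.29-fold difference (adjusted p = 0.0129, edgeR; higher in 6 of 6 libraries). Against the same naive libraries the change was 2.84 ± 0.34 in the vehicle group and 2.89 ± 0.34 in the GV1001 group. The adjusted p was 0.155 with limma-voom, and 0.201, 0.191 and 0.107 without naive replicates 1, 2 and 3, so the call rests on having all 3 naive libraries. The 250 bases before the RefSeq start of Lrg1 (build GRCm38.p6, chr17:56121947-56122196, minus strand) are shown because it is the gene that was called. They hold no match to the STAT, interferon, AP-1, metal, kappa B or sterol motifs that were searched, so no letter is in capitals.
Lrg1: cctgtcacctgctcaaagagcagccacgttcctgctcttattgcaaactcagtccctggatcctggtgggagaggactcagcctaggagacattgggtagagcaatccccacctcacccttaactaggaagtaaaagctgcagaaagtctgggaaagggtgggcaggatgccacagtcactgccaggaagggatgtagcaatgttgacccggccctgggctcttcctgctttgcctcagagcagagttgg

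The next genes by p were chosen after their values were seen, and none passed. Ifitm1, Cerox1 and Xbp1 were the next 3, and Vwf, Cp and Crtc3 ranked 6, 9 and 10 by p. Ifitm1, an interferon-induced membrane protein, had naive values of 4.53, 3.83 and 0.740 CPM and a lowest diseased value of 11.7, a median of 17.7 and a highest of 21.2 CPM. Its log2 fold change was 2.46 ± 0.36 (adjusted p = 0.0949, edgeR), and reads of close Ifitm copies may not be separable. Cerox1, a long non-coding RNA known to affect mitochondrial complex I, went the other way, at 35.9, 44.97 and 39.6 CPM in naive libraries against 22.8 to 26.5 CPM in diseased ones. The 6 diseased libraries were nearly level, with an SD of log2 CPM of 0.07, and the log2 fold change was -0.73 ± 0.11 (adjusted p = 0.0949, edgeR). Xbp1, a transcription factor of the unfolded protein response and of plasma cells, was similarly even, at 33.9 to 39.6 CPM in naive and 53.3 to 62.02 CPM in diseased libraries (0.67 ± 0.10 on the log2 scale, adjusted p = 0.0949, edgeR). Crtc3, a coactivator of CREB, was at 16.03 to 16.5 CPM against 23.3 to 31.5 CPM (0.74 ± 0.13). Vwf and Cp, described with the vessel and acute-phase genes, had estimates of 1.38 and 1.49.

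**Figure D2:**
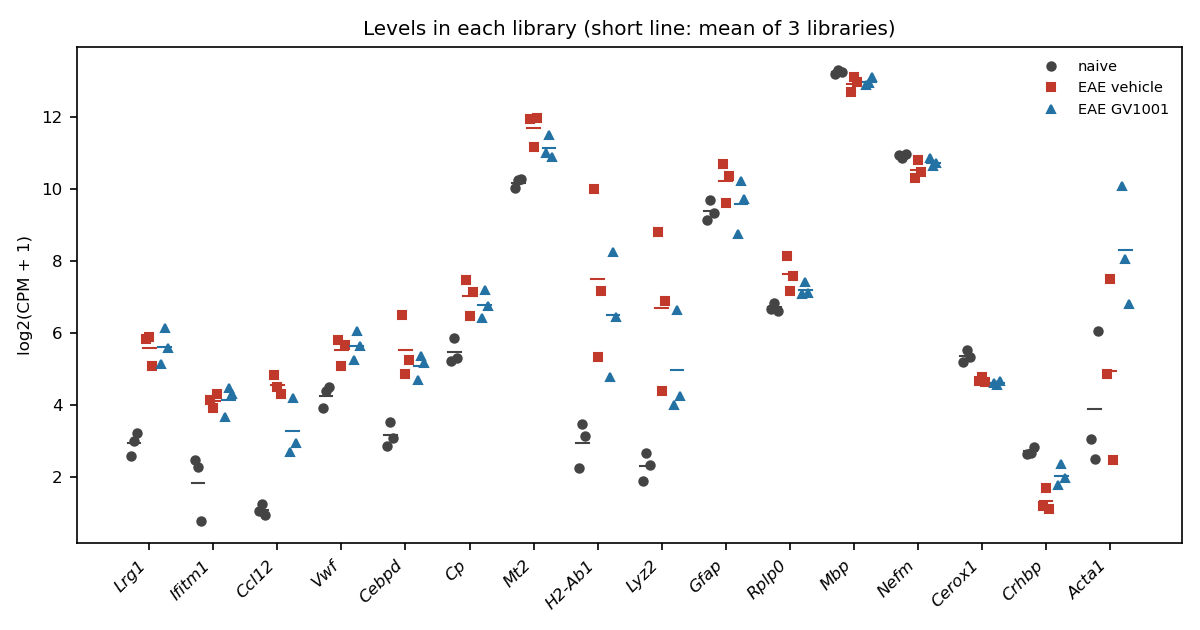
Levels of 16 genes as log2(CPM + 1), with 3 points each for naive (circles), EAE vehicle (squares) and EAE GV1001 (triangles) and a short line at each mean of 3. Lrg1, Ifitm1, Vwf and Cerox1 are separated from naive with little spread among diseased libraries, while the naive points of Ifitm1 are spread. H2-Ab1 and Lyz2 are separated but spread widely in disease, and Gfap and Acta1 overlap with naive.

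Of 19 tested genes of activated endothelium 1, Lrg1, rose and 10 had all 6 diseased libraries above naive (52.6%, against 4.55% of all genes) and 0 below. The median SD among diseased libraries was 0.49 over this list. Its median log2 fold change was 0.99, and 1.00 when EAE vehicle replicate 1, the library highest in most immune lists, was left out. Vwf, the adhesion protein that endothelium stores for platelets, was at 14.1, 19.9 and 21.6 CPM in naive and had a lowest diseased value of 33.2, a median of 49.4 and a highest of 65.6 CPM (1.38 ± 0.23, adjusted p = 0.164, edgeR). Tgm2, a transglutaminase that crosslinks matrix, was at 23.1 to 28.8 CPM against 45.2 to 128 CPM, and Igfbp7, a secreted protein of vessels, at 36.6 to 38.3 against 55.3 to 111 CPM. Ackr1, the chemokine-binding receptor of venules, was at 62.7 to 69.5 CPM in naive and 81.3 to 119 CPM in diseased libraries. The adhesion ligands that leukocytes bind were also separated from naive. Icam1 was at 1.63 to 2.96 CPM against 3.59 to 44.1 CPM and Vcam1 at 29.9 to 33.8 against 37.6 to 101 CPM. Of 20 tested barrier genes 4 were higher in all 6 libraries (20%) and 1 lower (5%, against 3.74% of all genes), with a median log2 fold change of 0.14. Slc2a1, the glucose transporter of brain vessels, was at 95.96 to 102 CPM in naive and 122 to 150.1 CPM in diseased libraries (0.43 ± 0.08).

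Genes of the interleukin 6 and STAT3 response had a median SD of 0.68 among diseased libraries. Of 16 tested members 8 lay above naive in all 6 libraries (50%, against 4.55% of all genes) and 0 below (median log2 fold change 1.47). Lrg1 belongs to this list and to the endothelial one, and was the called member of each. Other separated genes, among them Lcn2, Timp1, Cxcl9 and Itgax, also belong to more than 1 list, so counts of different lists are not independent. Osmr, the oncostatin M receptor, was at 2.72 to 4.71 CPM in naive and 4.73 to 22.9 CPM in diseased libraries. Socs3, the feedback inhibitor of this pathway, was at 3.08, 1.74 and 2.59 CPM in naive and had a lowest diseased value of 3.97, a median of 20.5 and a highest of 58.7 CPM (3.27 ± 0.86, adjusted p = 0.232, edgeR). Cebpd, a transcription factor of the acute phase, was at 6.34, 10.6 and 7.59 CPM and had a lowest diseased value of 24.96, a median of 36.02 and a highest of 89.4 CPM (2.37 ± 0.44, adjusted p = 0.196, edgeR). Cp, the copper-carrying ferroxidase of plasma and astrocytes, was at 36.2 to 57.7 CPM against 84.1 to 177 CPM. Lcn2, an iron-siderophore carrier, was at 1.11 to 6.97 CPM against 26.1 to 303 CPM. Saa3, a serum amyloid that no list held, had 1 count over the naive libraries and 1815 over the diseased ones, a ratio of 894 with an exact 95% Poisson interval of 160 to 35346 that covers counting error only. Timp1, an inhibitor of matrix metalloproteinases, was at 0.349 to 1.09 CPM against 1.89 to 132 CPM, its lowest diseased value less than 1 CPM above the highest naive one.

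The 250 bases before the starts of Socs3 (GRCm38.p6, chr11:117969367-117969616, minus strand) and Icam1 (chr9:21015690-21015939, plus strand) are printed since both genes were separated in all 6 libraries and each window holds the STAT letters TTCNNNGAA, which are in capitals.
Socs3: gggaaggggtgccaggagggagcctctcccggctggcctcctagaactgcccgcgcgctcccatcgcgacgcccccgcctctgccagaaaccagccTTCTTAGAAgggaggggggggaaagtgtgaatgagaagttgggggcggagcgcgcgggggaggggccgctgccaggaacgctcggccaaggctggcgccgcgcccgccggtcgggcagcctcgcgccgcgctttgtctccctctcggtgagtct
Icam1: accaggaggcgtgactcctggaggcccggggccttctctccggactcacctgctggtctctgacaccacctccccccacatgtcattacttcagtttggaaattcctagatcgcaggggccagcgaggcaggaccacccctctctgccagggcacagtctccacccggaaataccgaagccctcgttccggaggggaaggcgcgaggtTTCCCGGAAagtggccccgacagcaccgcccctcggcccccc

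Antigen presentation and phagocyte genes had large differences from naive and a wide range inside disease. Of 13 tested genes of MHC class II presentation, 8 were higher in all 6 libraries (61.5%, against 4.55% of all genes), with a median log2 fold change of 3.74. Of 23 genes of monocytes and macrophages 15 were (65.2%, median 3.08), of 18 complement genes 9 were (50%, 2.42) and of 23 chemokine genes 8 were (34.8%, 3.14). None of these lists had a member below naive in all 6. Some of these members held fewer than 10 counts in every naive library, so they were tested because of the diseased libraries in which they are high and their separation is no support: 3 class II, 9 monocyte, 2 complement and 13 chemokine genes, and 350 of all genes. Among the remaining members 7 of 10, 8 of 14, 8 of 16 and 3 of 10 were higher in all 6, against 584 of 15001 genes (3.89%). With such genes left out the counts were 9 of 15 for activated endothelium, 6 of 14 for the STAT3 list, 13 of 26 for reactive astrocytes, 11 of 22 for type I interferon-stimulated and 4 of 11 for interferon gamma-induced genes. Genes of this kind that are named in the text are Saa3, Timp1, Ciita, Itgax, Fcgr2b, Cfb, Ccl12, Ccl8, Cxcl9, Cxcl13, Lck and Atf3. The filter asked for its minimum in as many libraries as the naive group holds. Members under it in only some naive libraries therefore also needed diseased libraries to pass, and the reduced counts still hold any such members. Ifitm1, Lcn2, Icam1 and Socs3 are named genes of that further kind, so their separation is no support either. Without EAE vehicle replicate 1 the medians were 2.49 for class II, 2.41 for monocyte, 1.94 for complement and 2.41 for chemokine genes. All medians given for these lists include the members with few naive counts, so the filter shapes them in part. H2-Ab1, a class II beta chain whose reads may be shared with related H2 genes, was at 3.80, 10.1 and 7.77 CPM in naive and had a lowest diseased value of 26.7, a median of 115 and a highest of 1031 CPM (5.22 ± 1.34, adjusted p = 0.232, edgeR). Every diseased library exceeded every naive one, yet the diseased libraries themselves spanned from 26.7 CPM in EAE GV1001 replicate 1 to 1031 CPM in EAE vehicle replicate 1. Cd74, the invariant chain, followed that order at its ends from naive values of 3.80 to 9.59 CPM, with 14.6 CPM and 724 CPM in the same libraries. Ciita, the class II transactivator, had 2 naive and 295 diseased counts, a ratio of 72.7 (interval 19.9 to 603).

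Lyz2, the lysozyme of myeloid cells, was at 2.72, 5.40 and 4.07 CPM in naive and had a lowest diseased value of 15.1, a median of 59.04 and a highest of 449 CPM (4.86 ± 1.36). Ctss, a lysosomal protease that trims the invariant chain, was at 93.8 to 111 CPM against 127 to 2908 CPM, and Fcgr2b, the inhibitory IgG receptor, at 1.57 to 1.67 CPM against 4.92 to 84.4 CPM. Itgax, the integrin chain CD11c, had 2 naive and 515 diseased counts (ratio 127, interval 35 to 1051). Among complement genes Serping1, the C1 inhibitor, was comparatively even at 21.2 to 55.8 CPM against 71.2 to 194 CPM (1.84 ± 0.39). Cfb, factor B of the alternative pathway, was at 0.185 to 0.362 CPM against 4.35 to 137 CPM. C1qa, which microglia make in healthy cord, overlapped: its lowest diseased library had 60.3 CPM and naive libraries 51.4 to 64.9 CPM.

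Ccl12, a monocyte attractant, was at 1.09, 1.39 and 0.925 CPM in naive and had a lowest diseased value of 5.48, a median of 18.2 and a highest of 27.4 CPM (3.80 ± 0.68, adjusted p = 0.196, edgeR). Ccl8, another monocyte attractant, had 3 naive and 244 diseased counts (ratio 40.1, interval 13.6 to 196). Cxcl9, which draws T cells and is induced by interferon gamma, had 2 naive and 1540 diseased counts (ratio 379, interval 105 to 3136), but its diseased libraries ran from 1.89 to 197 CPM around a median of 8.77 CPM. Cxcl13, the B cell attractant, had 0 naive counts and 178 diseased ones, at least 29.2-fold higher when the naive group is set at 3 counts. Type I interferon-stimulated genes were higher in all 6 libraries in 12 of 24 cases (50%, median 1.85) and interferon gamma-induced genes in 5 of 14 (35.7%, 2.86), against 4.55% of all genes. Iigp1, an interferon-inducible GTPase, was at 5.00 to 6.62 CPM against 9.08 to 353 CPM, while B2m, the light chain of class I, overlapped at 233 to 318 against 246 to 4653 CPM. The window before Cxcl9 (GRCm38.p6, chr5:92328080-92328329, minus strand) is shown with its match to the interferon-stimulated response element letters GAAANNGAA in capitals.
Cxcl9: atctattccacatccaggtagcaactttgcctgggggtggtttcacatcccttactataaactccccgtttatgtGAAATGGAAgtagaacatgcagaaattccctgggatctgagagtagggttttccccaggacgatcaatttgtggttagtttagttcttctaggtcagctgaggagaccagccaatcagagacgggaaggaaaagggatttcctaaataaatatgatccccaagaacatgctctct

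Of 17 homeostatic microglia genes 3 were higher in all 6 libraries (17.6%, against 4.55% of all genes) and 0 lower, 15 had a positive estimate and 9 were higher at an unadjusted p below 0.05, with a median log2 fold change of 1. P2ry12, the ADP receptor of resting microglia, was at 9.41 to 14.99 CPM in naive and 11.7 to 22.8 CPM in diseased libraries (0.33 ± 0.25). Cx3cr1, the fractalkine receptor, and Aif1, which encodes IBA1, also overlapped with naive, at 65.4 to 499 CPM and 6.81 to 151 CPM in disease against 70.4 to 88.6 CPM and 6.88 to 11.1 CPM. EAE GV1001 replicate 1 was the lowest diseased library for Cx3cr1 and Aif1. Olfml3 was among the 3 separated, at 10.3 to 13.1 CPM against 17.8 to 55.5 CPM. T cell genes were mostly under the filter, with 7 of 25 tested, and 3 of the 7 held fewer than 10 counts in every naive library. Lck, the kinase of the T cell receptor, was at 0.185 to 0.543 CPM against 0.946 to 9.44 CPM, and Cd52, a surface protein of lymphocytes and of monocytes, at 3.70 to 7.49 CPM against 15.1 to 441 CPM. Of 11 neutrophil genes 1, Lcn2, was higher in all 6 (9.09%, against 4.55% of all genes), a gene that astrocytes also make. Lcn2 needed diseased libraries to pass the filter, so that count is no support.

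Of 30 reactive astrocyte genes 15 were higher in all 6 libraries (50%, against 4.55% of all genes) and 0 lower (median 1.72). Of 20 homeostatic astrocyte genes 2 were higher (10%) and 3 lower (15%, against 3.74% of all genes), with a median of -0.01, which is 0.02 under library totals alone. Vim, an intermediate filament, was at 71.3, 105 and 75.3 CPM in naive and had a lowest diseased value of 119, a median of 229 and a highest of 536 CPM (1.76 ± 0.45). Gfap, the classical astrocyte filament, overlapped: EAE GV1001 replicate 1 had 429 CPM and EAE vehicle replicate 2 779 CPM, inside or below the naive 560.2 to 825 CPM. Aldh1l1, a folate enzyme used as a pan-astrocyte marker, was even at 13.4 to 17.6 CPM against 23.3 to 27.4 CPM (0.64 ± 0.13), and Slc1a3, a glutamate transporter, was at 187 to 201 against 205 to 317 CPM. S100b, a calcium-binding protein of astrocytes and some oligodendrocytes, was lower in all 6, at 2369.5 to 2994 CPM in naive against 1808 to 2296 CPM in diseased libraries (-0.40 ± 0.11).

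Several metal-binding genes were higher. Of 15 tested metallothionein and iron genes 7 were higher in all 6 libraries (46.7%, against 4.55% of all genes; median 0.40). Mt2, a zinc- and copper-binding metallothionein, was at 1032, 1211 and 1237 CPM in naive and had a lowest diseased value of 1906, a median of 2578 and a highest of 4035 CPM (1.30 ± 0.25, adjusted p = 0.210, edgeR). Mt1, its neighbour on chromosome 8, was at 1346 to 1550 CPM against 1602 to 3697 CPM, and Mt3, the neural form, at 293 to 316 CPM against 344 to 437 CPM. Mt2 had the larger difference of the 3 on the log2 scale, with 1.30 against 0.78 and 0.30; the differences between them were not tested. Ftl1, a ferritin light chain, was at 86.4 to 103 CPM against 147 to 555 CPM, whereas the heavy chain Fth1 overlapped (0.09 ± 0.11). The window before Mt2 (GRCm38.p6, chr8:94172368-94172617, plus strand) holds 3 matches to the metal response element letters TGCACNC or TGCGCNC on either strand, 223, 128 and 50 bases before the start, and 1 match to the AP-1 letters TGANTCA 79 bases before it, all in capitals.
Mt2: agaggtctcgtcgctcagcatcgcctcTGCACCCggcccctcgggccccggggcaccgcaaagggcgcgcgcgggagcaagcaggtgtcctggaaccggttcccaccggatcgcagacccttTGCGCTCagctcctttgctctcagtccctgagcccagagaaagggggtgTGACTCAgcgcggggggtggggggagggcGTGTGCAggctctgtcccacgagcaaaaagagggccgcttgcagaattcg

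Transcripts of ribosomal proteins were slightly higher in all 6 libraries in 28 of 59 tested members (47.5%, against 4.55% of all genes) and lower in 0, with a median log2 fold change of 0.37. All 59 had a positive estimate, and the same 28 were separated under RLE and library totals as well. Rplp0 was at 97.5 to 114 CPM in naive and 134 to 279 CPM in diseased libraries, Rps16 at 100.04 to 110.1 against 132 to 209.6 CPM and Rpl28 at 78.4 to 100.5 against 111 to 185 CPM. Rplp1, the most abundant member, overlapped (0.16 ± 0.18). Ribosomal genes have many near-identical copies, so their counts depend on how reads were assigned. Nuclear genes of the respiratory chain had 0 of 38 members separated either way (median 0.02). Of 7 tested mitochondrially encoded genes 1, ND2, was lower in all 6 (14.3%, against 3.74% of all genes). This single gene was at 4865 to 5246 CPM in naive against 2953 to 4657 CPM in diseased libraries. Lysosomal genes were higher in all 6 in 11 of 27 cases (40.7%, against 4.55% of all genes; median 0.89), among them Psap, the precursor of the saposins, at 1219.8 to 1348 CPM against 1528 to 3037 CPM.

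Myelin genes were the list with the largest share of members lower in all 6 libraries among those with at least 7 tested genes. These were 9 of 30 (30%, against 3.74% of all genes), with 0 higher and a median log2 fold change of -0.24. The count was 7 with RLE size factors, as DESeq2 uses, and 5 with library totals alone. Under those 2 scalings 540 and 425 of all 15351 genes were lower in all 6. Mbp was at 9335, 10170 and 9751 CPM in naive libraries and had a lowest diseased value of 6549, a median of 7979 and a highest of 8851 CPM (-0.29 ± 0.13, adjusted p = 0.332, edgeR). Mag, an adhesion protein of the inner myelin layer, was at 842 to 917 CPM against 673 to 794 CPM. Enpp2 and Ermn, both expressed by mature oligodendrocytes, were even in disease. Enpp2 was at 536 to 588 CPM against 394 to 466 CPM (-0.34 ± 0.08), and Ermn at 229.8 to 281 CPM against 197 to 211 CPM (-0.33 ± 0.08). Opalin had the most negative estimate of the named myelin genes, at 66.9 to 79.7 CPM against 43.7 to 64.8 CPM (-0.47 ± 0.13). Mog, the antigen often used to induce EAE, touched the naive range (196 to 204 CPM in naive and 147 to 200.4 CPM in diseased libraries). Sterol synthesis genes leaned the same way in 23 of 24 members (median -0.29), but 2 were separated (8.33%); Lss, which closes the sterol ring, was at 24.4 to 25.97 CPM against 12.7 to 19.9 CPM, and Hmgcs1 overlapped.

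Of 25 tested genes of the neuron list 0 were called, 6 were lower at an unadjusted p below 0.05, and 4 lay below naive in all 6 libraries (16%, against 3.74% of all genes). With library totals alone 3 did, against 425 of all 15351 genes. All 25 had a negative estimate (median -0.23). The neurofilaments Nefl and Nefm were at 1707 to 2126 CPM and 1271 to 1839 CPM in disease, against 2333 to 2361 CPM and 1858 to 2008 CPM in naive cord, and Map2 of dendrites was at 601 to 751 against 775 to 884 CPM. Synaptic receptor genes had 4 of 27 lower in all 6 (14.8%, against 3.74% of all genes). With library totals alone it was 1 of 27, a share near that of all genes under the same scaling, 425 of 15351. Voltage-gated channels had 3 of 24 lower (12.5%). Cacng7, an auxiliary subunit of AMPA receptors, had the most negative estimate of the receptor list, at 105 to 122 CPM in naive and 39.8 to 90.2 CPM in diseased libraries (-0.88 ± 0.22, adjusted p = 0.232, edgeR). Scn1a, a sodium channel of fast-firing neurons, was at 353 to 395 against 261 to 348 CPM. Cholinergic motor neuron genes had 0 of 11 separated. Outside the lists, Crhbp, which binds corticotropin-releasing hormone, was at 5.25, 5.40 and 6.11 CPM in naive with a lowest diseased value of 1.19, a median of 2.36 and a highest of 4.21 CPM (-1.21 ± 0.33), and the transcription factor Nkx2-9 was at 7.59 to 9.76 against 3.56 to 5.43 CPM.

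**Figure D3:**
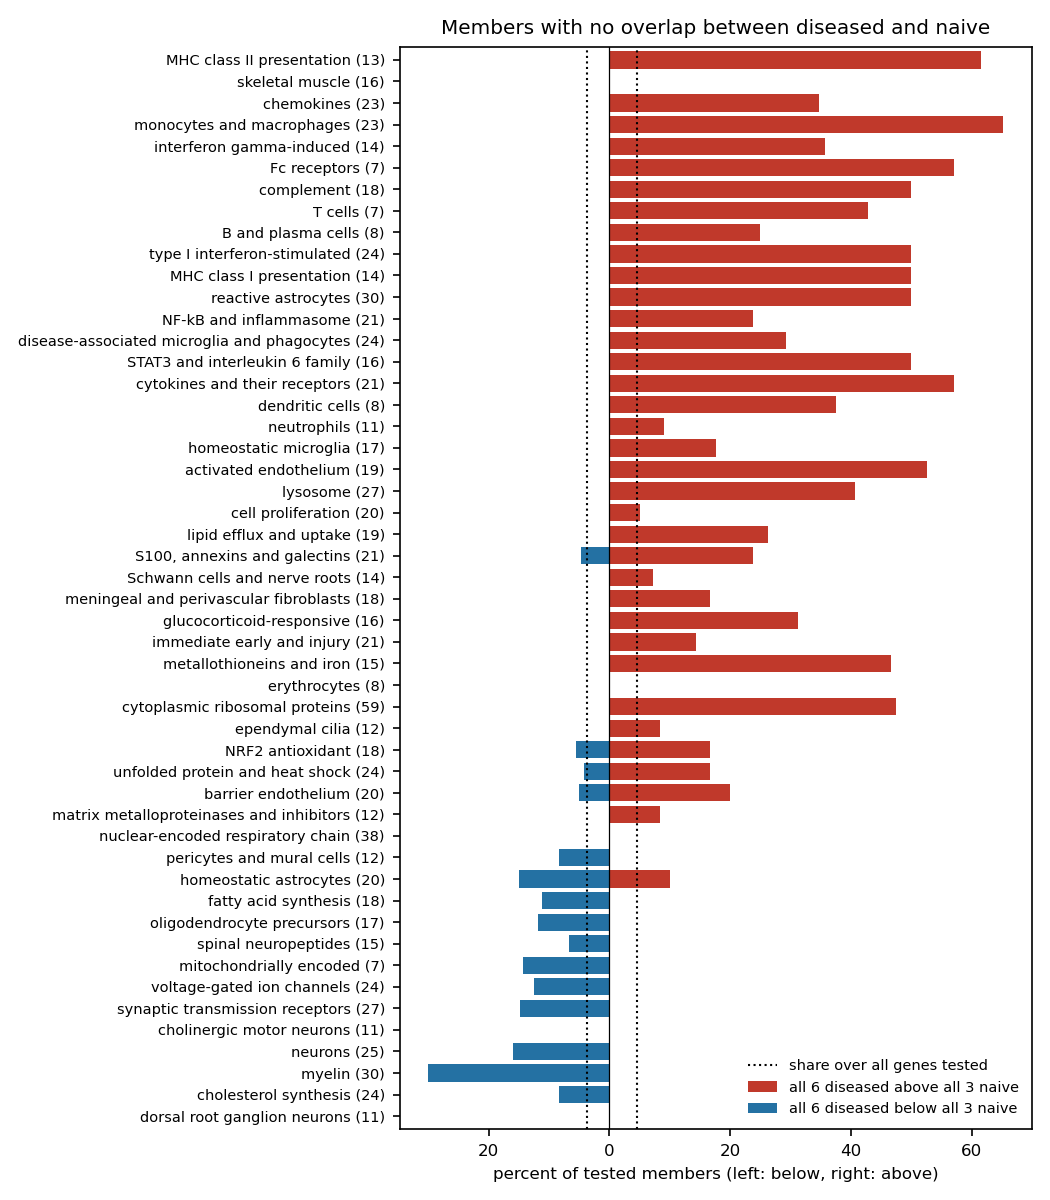
For the 50 gene lists with at least 7 tested members (number in brackets), bars give the percent of members with all 6 diseased libraries above (right, red) or below (left, blue) all 3 naive libraries, and dotted lines give the 4.55% and 3.74% of all genes tested. Lists are ordered by median log2 fold change; monocytes and MHC class II reach over 60% to the right and myelin 30% to the left, while skeletal muscle has no bar despite its high median.

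Separation with little spread picked out both list members and genes that no list held. The evenest higher genes by this rule were the list members Aldh1l1 and Xbp1 (SD 0.09 each), described above. Among genes separated from naive with an absolute log2 fold change of at least 0.5, the evenest higher ones included Gng5, a G protein gamma subunit, at 4.89 to 7.67 CPM against 10.3 to 12.7 CPM, and Spcs3 of the signal peptidase, at 17.6 to 20.5 against 23.9 to 32.1 CPM. Polr3e, a subunit of RNA polymerase III, was at 20.7 to 23.5 CPM in naive and 27.99 to 34.6 CPM in diseased libraries. The evenest lower ones included Ccdc171, at 10.8 to 16.1 against 7.29 to 8.70 CPM, and Celf5, a neuronal RNA-binding protein, at 34.7 to 41.5 against 22.6 to 30.1 CPM. Pcyt1b, an enzyme of phosphatidylcholine synthesis, was at 44.6 to 51.2 CPM in naive and 28.5 to 39.6 CPM in disease. An SD below 0.5 together with a difference of more than 2-fold was found in 43 of the 698 higher genes and in 8 of the 574 lower genes.

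Promoter windows could be matched for 11740 of the 15351 genes, 556 of the 698 higher ones and 419 of the 574 lower ones, from RefSeq on GRCm38.p6 (the counts were made on GRCm39). Within 250 bases before the start and on both strands, STAT letters (TTCNNNGAA) were found in 9.53% of the higher, 3.82% of the lower and 5.83% of all windows. Interferon-stimulated response element letters (GAAANNGAA) were in 11.3%, 4.53% and 6.15%, and AP-1 letters (TGANTCA) in 7.19%, 3.58% and 4.37%. Kappa B matches were in 5.4%, 3.82% and 4.45%. Sterol response element letters (TCACNCCAC) were rare, in 2.34%, 1.19% and 0.98%. Metal response element letters were common and went the other way, in 23.2% of higher, 35.3% of lower and 30.2% of all windows. Windows were not matched on base composition, matches of different motifs can overlap, and none of these shares was tested.

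Within disease, GV1001 against vehicle gave 0 called genes (0% of 15351; edgeR, smallest adjusted p 0.528), with 1394 genes at an unadjusted p below 0.05; limma-voom also gave 0 (1215 at an unadjusted p below 0.05) and DESeq2 gave 13. Without EAE vehicle replicate 2 the count was 8, and without EAE GV1001 replicate 3 it was 1. In the 698 separated higher genes the GV1001 group was estimated below vehicle in 611, with a median difference of -0.31 on the log2 scale. Without EAE vehicle replicate 1 this was 466 of 698 and -0.09. In the lower genes the GV1001 group was estimated above vehicle in 427 of 574 (median 0.09). It was below vehicle in 147 of these lower genes, and in 187 without EAE vehicle replicate 1 (median 0.07). Over all genes tested the GV1001 group was below vehicle in 7895 of 15351 (median -0.0088). Without EAE vehicle replicate 1 that was 7604 (median 0.0030). The difference was under 0.25 either way in 291 of the higher and 461 of the lower genes. For Lyz2 the vehicle and GV1001 groups stood at 5.57 ± 1.21 and 3.42 ± 1.26 relative to the same naive libraries, and for Vwf at 1.31 ± 0.26 and 1.45 ± 0.26.

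**Figure D4:**
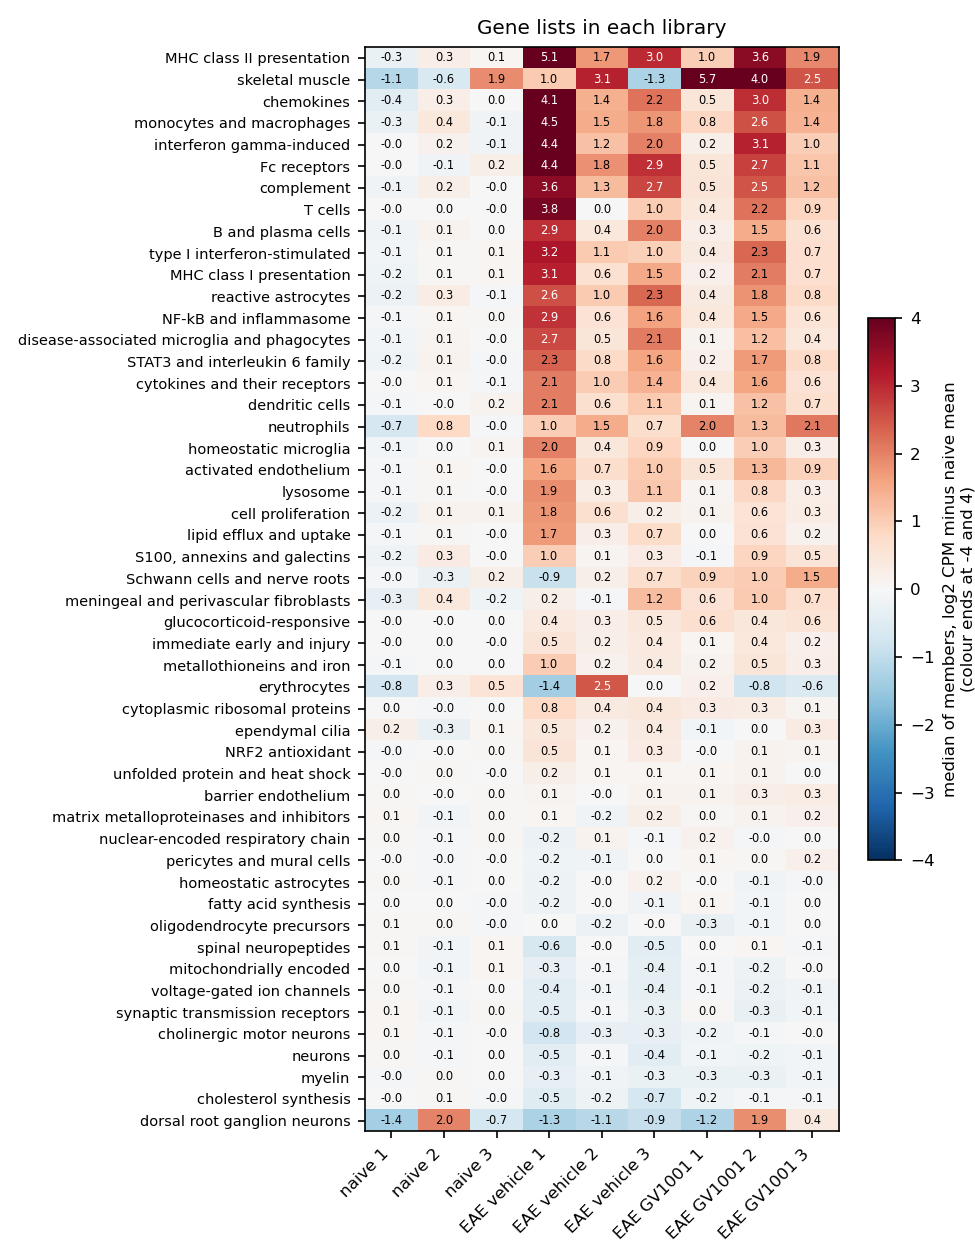
Each cell is the median over a list's tested members of log2 CPM relative to the naive mean, for 50 lists (rows) in 9 libraries (columns), coloured from -4 to 4. In the MHC class II, chemokine, monocyte and complement lists EAE vehicle replicate 1 is the highest and EAE GV1001 replicate 1 the lowest diseased library. Activated endothelium has the same highest and lowest diseased libraries, over a narrower range of 0.51 to 1.57 in all 6.

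Transcripts of tissue next to the cord varied widely between the diseased libraries, and their part in the results above was not tested. Skeletal muscle genes had the second highest median of the 50 lists (3.29) with 0 of 16 separated; Acta1, skeletal actin, was at 7.42, 4.71 and 66.1 CPM in naive and 28.3, 179, 4.57, 1072, 266 and 111 CPM in the diseased libraries. With the log2 shares of muscle and Schwann cell genes as covariates, a fit with 5 residual degrees of freedom instead of 7, edgeR called 1069 genes, 885 higher (5.77% of all genes) and 184 lower (1.2%). Of these, 409 were among the 698 separated higher genes, 102 among the 574 lower ones and 558 among genes whose libraries overlapped. In that fit 27 of 30 reactive astrocyte genes, 25 of 27 lysosomal genes, 12 of 13 class II genes and 28 of 59 ribosomal genes were called higher, and 5 of 25 neuron genes and 4 of 24 sterol synthesis genes lower, while 1 of 30 myelin genes was called higher and 0 lower. Called higher were also 11 of 24 type I interferon-stimulated genes, 2 of 7 T cell genes, 2 of 11 neutrophil genes and 1 of 20 barrier endothelium genes. Without both libraries with the most muscle transcripts the original fit called 1 gene, Lrg1, and 2136 genes were separated (1194 higher, 942 lower), fewer diseased libraries then having to clear naive.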

How the data were processed

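Whole-cord RNA of 9 libraries (5247246 to 6174870 counts each) was analysed from the table of raw counts per gene symbol that the authors deposited; the 9 single files held the same values. Per the submitters' processing notes the authors used FastQC, STAR, HTSeq and build GRCm39, without versions. Per the labels' protocols libraries were QuantSeq 3′ mRNA-Seq V2 FWD, and use of molecular identifiers is not stated.

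Genes were filtered with filterByExpr by pooled group (minimum count 10), scaled by TMM and tested in edgeR 4.0.16 by quasi-likelihood (current form, 1 coefficient for disease, 7 residual degrees of freedom), with Benjamini-Hochberg adjustment and a threshold of 0.05. Standard errors come from the F statistic. Values named CPM use TMM-scaled totals, and log2 CPM for spread a prior count of 2. A gene was separated when all 6 diseased libraries lay on 1 side of all 3 naive ones. limma 3.58.1, DESeq2 1.42.0 (no filter), R 4.3.3, Python 3.11.15 and matplotlib 3.10.9 were used. The test was checked on simulated counts. Calling of changed genes was required there only at a low fixed spread between libraries. That check therefore does not show how many changes the test can find in these data.

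The comparison, the gene lists and the covariates were chosen with earlier results of these data known, so lists are described by counts and medians without a test. A few list symbols were matched to the table's spelling after it was seen. The fixed rule named called genes (12 largest per direction, 6 evenest with an absolute log2 fold change of at least 0.5, at 5 CPM or more), for each list its called member with the smallest p and its most abundant member, and genes fixed by name. Some genes that these rules name are left out here. As 1 gene was called, the same rankings without a call were added after values were seen. Of the genes fixed by name Tert had 1 naive and 10 diseased counts and was not tested. Exact 95% Poisson intervals and the floor of 3 counts cover counting error only. Replicate numbers were not taken as pairs in the main fit. After centring within each group 2 of 9 same-number pairs had a correlation above 0.1, and the range was -0.50 to 0.25. With 3 libraries per group this cannot exclude pairing. Promoter windows came from RefSeq (GRCm38.p6), the first listed start of each gene. Alternatives were another tool, scaling, filter or threshold, 3 groups in the fit, the replicate block, the covariates and each library left out.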

Additional observations from a re-analysis of the deposited data

Results flagged for a closer look

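In 7 of the 105 genes examined, the highest or lowest diseased library stood apart from the other 5 on the log2(CPM + 1) scale, with a gap to the nearest library divided by the whole range above Dixon's 95% critical value for 6 samples. Chance flags about 1 in 20 such groups. EAE vehicle replicate 1 was the high library for P2ry12 (gap share 0.631), Mt3 (0.631) and Fth1 (0.64). EAE vehicle replicate 2 was the high library for the beta-globin gene Hbb-bs (0.699), the one with the highest share of red cell transcripts, and the low library for the matrix gene Hmcn1 (0.654). EAE vehicle replicate 3 was the low library for Lss (0.67), and EAE GV1001 replicate 1 for the mitochondrial topoisomerase gene Top1mt (0.641). Mt3, Lss, Hmcn1 and Top1mt remained on 1 side of naive in all 6 libraries.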

How the results depend on the processing

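The count of 1 called gene was 473 with DESeq2, 0 with limma-voom, 6 without a filter on low counts (Lrg1, Ifitm1, Vwf, Ccl12, Cp and Cebpd), 0 at an adjusted p of 0.01 and 1069 with the muscle and Schwann cell shares as covariates. It was 0 to 2 when 1 library was left out: 0 without any 1 of the naive libraries, 2 without EAE vehicle replicate 1. It was 1 with the replicate block, the older quasi-likelihood form, 3 groups in the fit, both other scalings, the stricter filter and a fold of at least 1.5. Lrg1 had a log2 fold change of 2.69 to 3.03 over all alternatives run. The replicate number as a block left GV1001 against vehicle at 0 genes, which was 13 with DESeq2 and 0 to 8 with 1 diseased library left out; leaving 2 libraries in a group takes the spread from the other groups. Separated genes numbered 1391 to 2300 with 1 library left out (747 to 1213 higher, 644 to 1087 lower), and 2136 (1194 higher, 942 lower) without both libraries with the most muscle transcripts, an alternative chosen after seeing the data. With library totals alone 807 were higher and 425 lower, a split of 65.5% higher against 54.9% with TMM; the median of all genes then moved to 0.03. Acta1 reversed to -0.12 with the covariates, and Hbb-bs ranged from -0.21 to 1.22 with 1 library left out, reversing without EAE vehicle replicate 2. The cause of these differences was not tested. List medians moved by more than their spread between diseased libraries in 7 of 816 cases. That spread is wide for the immune lists, at 1.51 for class II and 1.31 for monocyte genes. Large shifts of such medians therefore do not count as moved, and the low number is no measure of stability. Depth limits low transcripts: 3 counts are 0.486 to 0.572 CPM.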

Other observations

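Several genes outside the groups above were also higher in all 6 diseased libraries, and none of them passed the test. Of 16 glucocorticoid-responsive genes 5 were separated (31.3%, against 4.55% of all genes; median log2 fold change 0.47), among them Sgk1, a kinase that steroid hormones induce, at 24.99 to 46.2 CPM in naive and 76.8 to 207 CPM in diseased libraries (1.63 ± 0.32). Of 21 immediate early and injury genes 3 were separated (14.3%, median 0.44). Without members that held fewer than 10 counts in every naive library the glucocorticoid count was 4 of 15 and the immediate early count 2 of 20. Over all genes it was then 584 of 15001. Atf3, a stress and nerve injury transcription factor, was at 0.724 to 1.05 CPM against 2.08 to 19.4 CPM. It is such a member, so its separation is no support. Egr2, a transcription factor of immediate early responses that Schwann cells also use, was at 2.90 to 6.11 CPM against 7.51 to 16.2 CPM. Egr2 was the 1 of 14 Schwann cell genes that was separated (7.14%). Hspb1, a small heat shock protein, was at 22.8 to 35.6 CPM against 43.1 to 88.3 CPM.

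Of 18 genes of meningeal and perivascular fibroblasts 3 were higher in all 6 libraries and 0 lower (16.7%, against 4.55% of all genes; median 0.69). Dcn, the matrix proteoglycan decorin, was at 146 to 214 CPM in naive and 228 to 539.9 CPM in diseased libraries, and Apod, a lipid carrier that glia also make, at 723 to 895 against 1020.2 to 2124 CPM. Tgfbr2, a receptor chain for transforming growth factor beta, was at 12.9 to 15.4 CPM in naive and 24.96 to 59.98 CPM in diseased libraries (1.45 ± 0.30). Nfkbia, the NF-kB inhibitor that NF-kB itself induces, was at 138 to 168 CPM against 200.2 to 569 CPM and was 1 of 5 separated members among 21 NF-kB and inflammasome genes (23.8%; median 1.63).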
